A study of Mus musculus with 8 samples.

Results

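The genes 4933430H15Rik, Atp6v1g2, Fads6, Gramd1a and Il17b were selected on measured values. In each of them the whole 2 kb around the TSS lay under 5hmC peaks in ESCs with a hairpin against GFP (shGFP), and 0 bp of it lay under peaks in ESCs with a hairpin against Suz12 (shSuz12). Among 22367 protein-coding genes of the mm9 annotation, 64 had a fully covered promoter in shGFP (0.286%), and 6 of these were bare in shSuz12 (0.0268%). The sixth gene, Scara3, met the same rule and is left out of the 5 only because ties were taken by symbol. The coverage of these promoters in shGFP and shSuz12 chose the genes, which were taken from among those with some coverage in ESC, and all 3 are given as a description. MEF, brain and liver played no part in the choice.

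5-Hydroxymethylcytosine (5hmC) is made from 5-methylcytosine by the Tet enzymes, of which Tet1 is abundant in ESCs and binds many CpG-rich promoters. Suz12 is a core subunit of Polycomb repressive complex 2, which methylates histone H3 at lysine 27 at promoters of silent developmental genes. The knockdown addresses how the 5hmC landscape of ESCs depends on that complex. In the GLIB method, 5hmC is glucosylated, oxidised and tagged with biotin, so that fragments carrying it can be captured and sequenced.

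The libraries came from the E14 line of mouse ESCs, from C57BL/6 MEFs, from brain and liver of adult C57BL/6 mice aged 8 weeks, and from E14 cells transfected with shGFP or shSuz12 and selected with puromycin. The labels give embryonic day 11 for the MEFs, and the methods name a later day. Each of the 6 conditions had 1 library, so no spread between replicates can be given and no difference between libraries was tested. Which Suz12 hairpin was used for these libraries is not given in the sources used here, and the RNA-Seq libraries of the knockdown cells were not analysed here. The lists hold the position of each peak and a score. The score is read here on the MACS scale, where it is 10 times the negative log10 of p, although the lists do not state it, and the depth behind them is unknown.

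The lists differed in their lowest score and in peak width. The shGFP list held 132996 nuclear peaks with a lowest score of 50.02 and a median width of 776 bp. The shSuz12 list held 138705 peaks, reached down to a lower score of 30.34, and had a median width of 564 bp. Peaks of at least 2 kb numbered 4137 in shGFP (3.11%) and 232 in shSuz12 (0.167%). A promoter window of 2 kb was covered in full at 64 genes in shGFP and at 2 in shSuz12, against 119 in ESC, 42 in MEF, 35 in brain and 98 in liver. The lowest score was 80 in the ESC and liver lists and 30 in the MEF and brain lists, so these counts share no cutoff. No gene was fully covered in shSuz12 and bare in shGFP. The part of this narrowing of peaks over the whole list in the loss at the 5 genes was not tested.

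**Figure D1:**
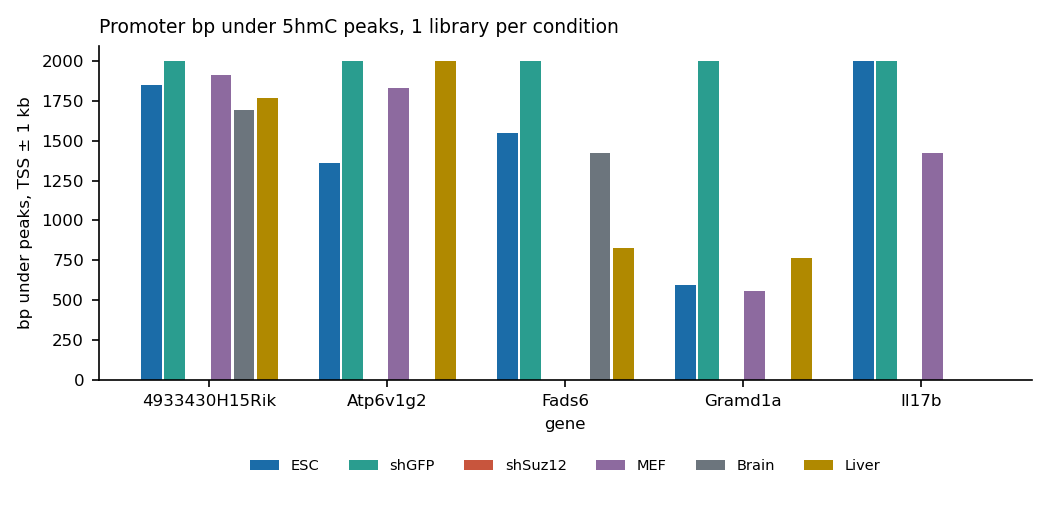
Base pairs of the TSS ± 1 kb under 5hmC peaks (y axis, bp out of 2000) for each of the 5 genes (x axis), with 1 bar per library. All 5 genes stand at 2000 bp in shGFP and at 0 bp in shSuz12, by the rule that chose them, while ESC ranges from 593 to 2000 bp.

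Among the 5 genes, Il17b encodes a cytokine of the interleukin 17 family that signals through Il17rb. Its promoter was covered over 2000 bp in ESC and in shGFP, over 1425 bp in MEF, and over 0 bp in shSuz12, brain and liver. It was the only one of the 5 to be fully covered in ESC as well. 4933430H15Rik is a RIKEN cDNA gene whose promoter had 1850 bp under peaks in ESC. MEF peaks covered 1912 bp of it, brain peaks 1693 bp and liver peaks 1773 bp. Of the 6 libraries, shSuz12 alone left this promoter bare.

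Atp6v1g2 encodes a G subunit of the V1 sector of the vacuolar proton pump, an isoform known from neurons. Its promoter had 1360 bp under peaks in ESC, 1835 bp in MEF and 2000 bp in liver, and none in brain. Fads6, a member of the fatty acid desaturase family, was covered over 1552 bp in ESC, with 1422 bp in brain, 824 bp in liver and none in MEF. Gramd1a encodes a sterol transfer protein of contacts between the endoplasmic reticulum and the plasma membrane. It had the lowest ESC coverage of the 5, at 593 bp, with 556 bp in MEF, 762 bp in liver and none in brain. ESC coverage fell short of the full window at 4 of the 5 genes, and at 41 of all 64 promoters fully covered in shGFP (64.1%).

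In the libraries that the rule did not use, a peak reached the promoter of 4 of the 5 genes in MEF, 2 in brain and 4 in liver. Over all 22367 promoters the shares were 30.1% in MEF, 20% in brain and 29.4% in liver. Over the 64 promoters fully covered in shGFP they were 60.9% in brain (95% exact Clopper-Pearson interval 47.9 to 72.9%), 54.7% in MEF (41.7 to 67.2%) and 35.9% in liver (24.3 to 48.9%). These intervals cover counting error only, and the 5 genes are among the 64. When all lists were held to a minimum score of 80, the MEF count fell to 3 genes and the brain count to 1, as the Gramd1a peak in MEF and both Fads6 peaks in brain had lower scores.

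Just outside the rule stood Slc18a2, with 1991 bp in shGFP, Mall with 1987 bp and Fam26f with 1966 bp, all with 0 bp in shSuz12. Scara3, the gene tied with the 5, had 740 bp under peaks in ESC, 998 bp in brain, 826 bp in MEF and 0 bp in liver. In the wider comparison, 2678 promoters had a peak in shGFP and none in shSuz12 (12.0%), and 1398 had a peak in shSuz12 and none in shGFP (6.25%).

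The rule placed the 5 genes at the lower end of shSuz12 coverage among the 64 promoters fully covered in shGFP, so nothing is read from their place there. In shSuz12, 6 of the 64 were bare (9.38%, 95% interval 3.52 to 19.3%), 56 were covered in part and 2, Sfi1 and Gm17379, in full. The 58 that were not bare kept from 330 to 2000 bp, with a median of 1038 bp. The bare share depended on the scores kept, at 48.4% with a minimum score of 80 and 23.4% in the top 50% of each list. In ESC, 1 of the 64, Tmem159, was bare (1.56%, 0.0396 to 8.4%). In 3 pairs, 6 of the 64 windows overlap each other, so the promoters are not all separate.

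**Figure D2:**
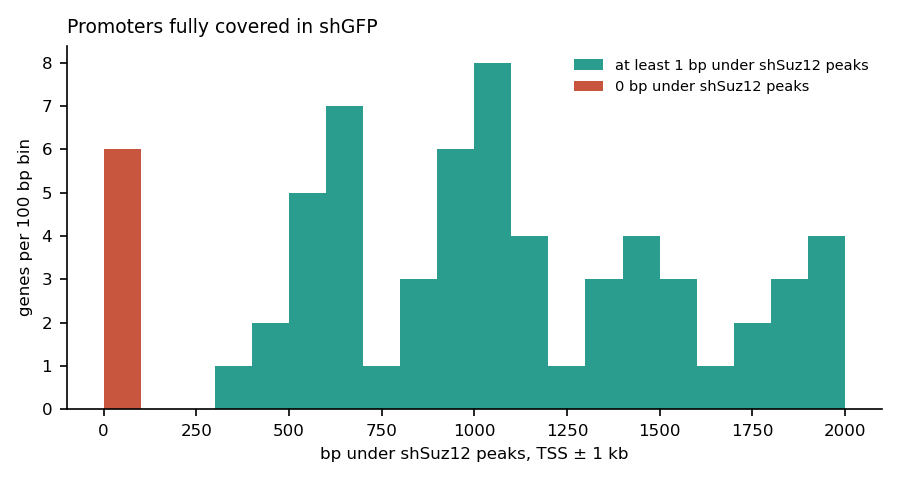
Number of genes (y axis, bins of 100 bp) by the bp of TSS ± 1 kb under shSuz12 peaks (x axis), for the 64 genes with a fully covered promoter in shGFP. The 6 bare promoters stand at 0 bp, apart from the other 58, the lowest of which kept 330 bp.

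Each of the 5 promoters lay under 1 wide shGFP peak, which was the highest-scoring shGFP peak of its locus. At 4933430H15Rik this was chromosome 3, 87551468 to 87553782 (2315 bp, score 403). At Atp6v1g2 it was chromosome 17, 35369207 to 35371604 (2398 bp, score 353). At Fads6 it was chromosome 11, 115157459 to 115159988 (2530 bp, score 294), level to 3 digits with another peak of that locus. At Gramd1a it was chromosome 7, 31935026 to 31937618 (2593 bp, score 329). The widest and highest was that of Il17b, 61846459 to 61849642 (3184 bp, score 606).

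Bare within 1 kb of the TSS did not always mean that the whole peak had gone. The shGFP peaks of 4933430H15Rik, Atp6v1g2 and Gramd1a met no shSuz12 peak anywhere along their length. That of Fads6 had 464 bp, and that of Il17b 452 bp, under an shSuz12 peak beyond the window. Over the whole list, 49.5% of shGFP peaks met no shSuz12 peak, but among peaks of at least 2 kb the share was 5.85% (242 of 4137). Among peaks at least as wide as the narrowest of the 5 it was 3.70% (85 of 2295), and at least as wide and as high, 2.66% (55 of 2066). As the 5 were chosen for the absence of shSuz12 peaks, nothing is read from their 3 of 5.

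The gap in shSuz12 peaks around the TSS differed from gene to gene and was not that of the shGFP promoter peak alone. It took in other whole shGFP peaks at 4933430H15Rik and Atp6v1g2, and at Fads6 and Il17b it ended inside the shGFP promoter peak. Between the nearest shSuz12 peaks on either side of the TSS it was 12716 bp at 4933430H15Rik, 9376 bp at Atp6v1g2, 6527 bp at Fads6, 3658 bp at Gramd1a and 2594 bp at Il17b. Counted from the TSS, the gap ran from -1209 to 1386 bp at Il17b and from -2087 to 1572 bp at Gramd1a. In a window of 2 kb on each side, 2 of the 5 promoters, 4933430H15Rik and Atp6v1g2, were still bare in shSuz12, and none was fully covered in shGFP.

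**Figure D3:**
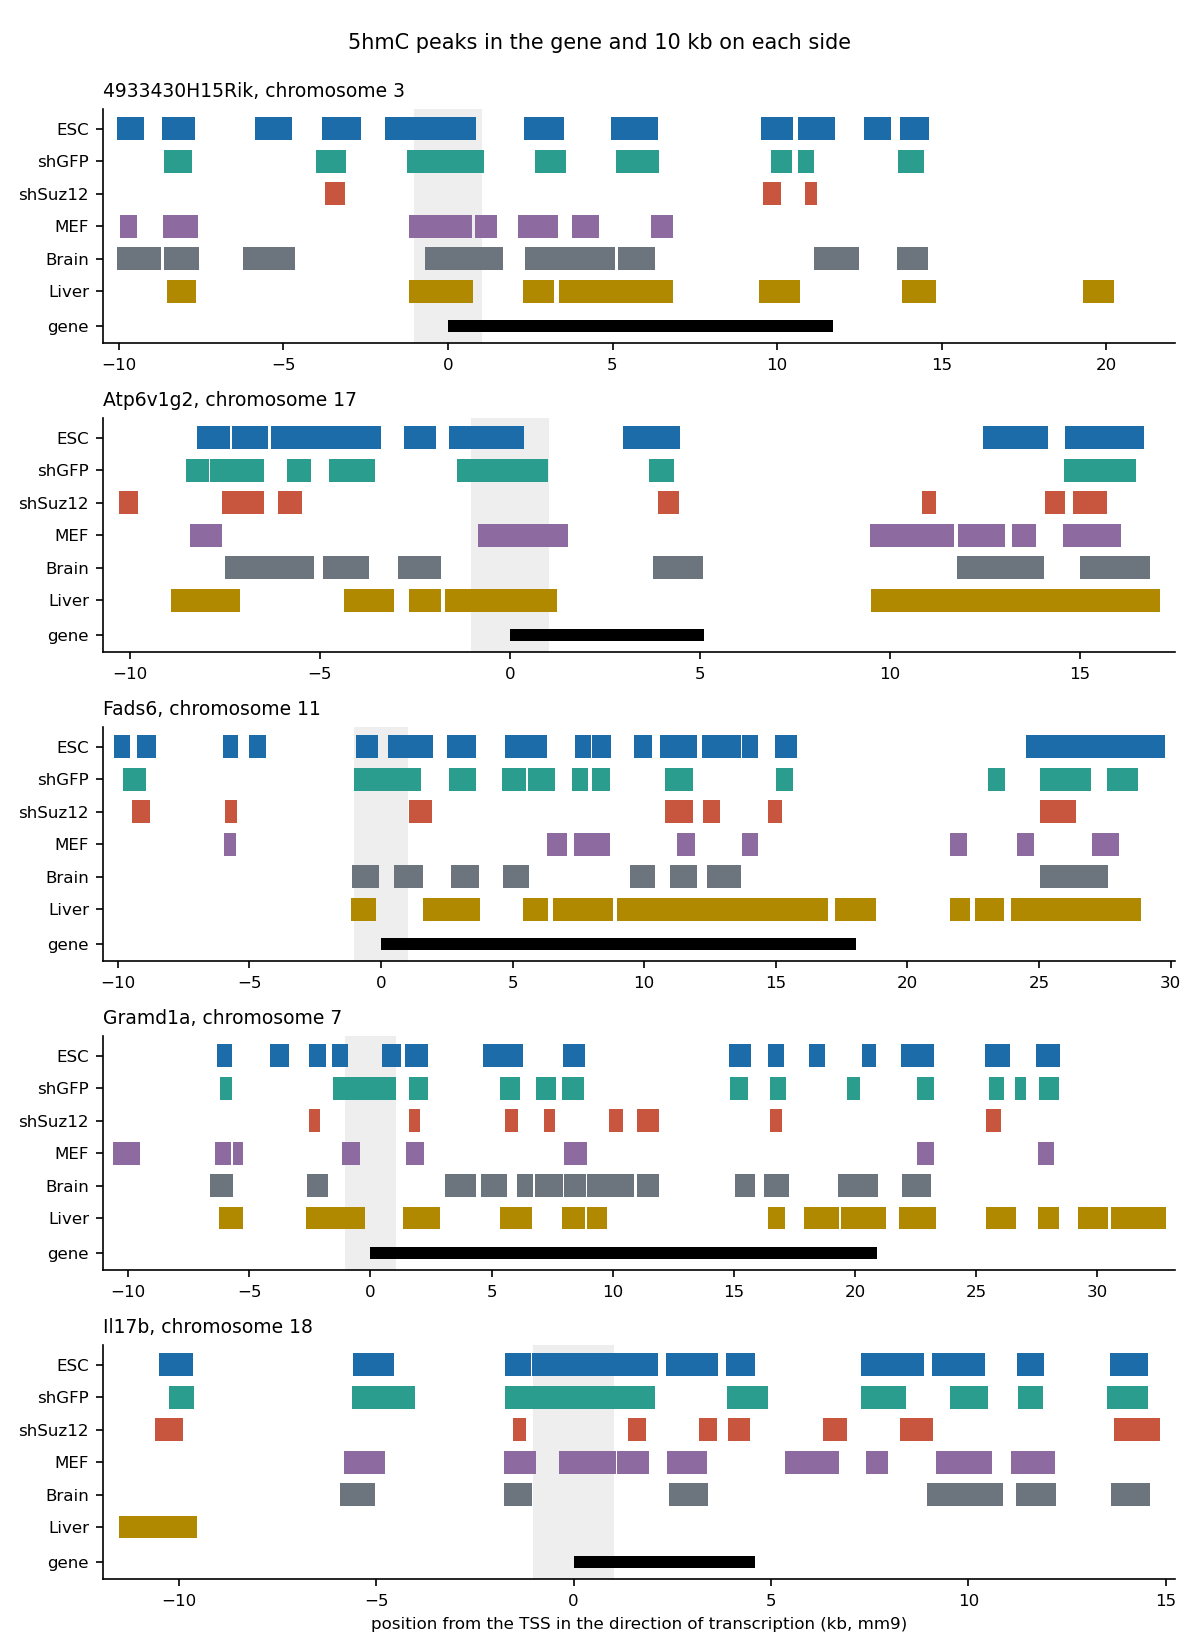
Positions of all 5hmC peaks in each gene and 10 kb on each side (x axis, kb from the TSS in the direction of transcription), with 1 row of bars per library, the gene as a black bar and TSS ± 1 kb shaded. The shaded windows are filled in shGFP and empty in shSuz12, while shSuz12 peaks remain elsewhere in each locus.

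In the following, peaks are given by their first and last base from the TSS in bp, in the direction of transcription, with the score in brackets. Without the 5 promoter peaks that the rule fixed, 21 of 44 shGFP peaks at the loci met an shSuz12 peak (47.7%), near the 50.5% of all shGFP peaks. An ESC peak was met by 40 of the 44 (90.9%), against 76.3% of all shGFP peaks. As the genes were taken from among those with some coverage in ESC, this share is a description. With those 5 peaks left out, the bp under shSuz12 peaks were 0.513 times those under shGFP peaks over the 5 loci, against 0.689 times over the genome. The loci were still chosen by a contrast of these libraries, so the lower ratio is a description. It depended on the scores kept, at 0.251 with a minimum score of 80 and 0.74 in the top 50% of each list. By locus it was 0.253 at 4933430H15Rik, 0.72 at Atp6v1g2, 0.529 at Fads6, 0.547 at Gramd1a and 0.52 at Il17b, an order that did not hold. Atp6v1g2 fell to 0.286 with flanks of 5 kb, and Gramd1a turned to 2.23 in the top 50%. With a minimum score of 80, no shSuz12 peak was left at 4933430H15Rik and the ratio at Il17b was 0.0206. Outside the promoter windows, 21.0 to 37.9% of the gene and its flanks lay under shGFP peaks and 5.04 to 19.0% under shSuz12 peaks. The medians over all protein-coding genes were 5.68% and 4.2%, so each of the 5 loci was above the median in both libraries. These shares still hold the parts of the promoter peaks that lie beyond the windows. As the rule asked for full shGFP coverage around the TSS, this too is a description.

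Il17b (chromosome 18, 61847589 to 61852191, plus strand) lay between peaks on both sides in both shGFP and shSuz12. The shGFP list held 9 peaks, of which 5 lay at -10255 to -9628 (70.1), -5615 to -4019 (126), -1746 to -1142 (86.8), -1130 to 2053 (606) and 3885 to 4928 (128). Next came peaks at 7290 to 8420 (153), 9538 to 10486 (78.2), 11257 to 11880 (51.2) and 13498 to 14559 (209). The shSuz12 list held 8 peaks, of which 4 lay at -10601 to -9889 (81.8), -1536 to -1209 (55.1), 1386 to 1837 (72.1) and 3167 to 3630 (41.8). Then followed 3907 to 4463 (54.5), 6311 to 6929 (69.2), 8258 to 9099 (48.2) and 13686 to 14841 (65.9). Here 6 of the 9 shGFP peaks met an shSuz12 peak, the promoter peak among them, and the highest shSuz12 score was 81.8.

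At the same gene in the other libraries, the peak over the TSS was seen in ESC and MEF and not in brain or liver. The ESC list held 10 peaks, of which 5 lay at -10514 to -9654 (139), -5601 to -4545 (318), -1737 to -1077 (188), -1048 to 2129 (1429) and 2347 to 3654 (219.8). Downstream of these were 3855 to 4583 (115), 7286 to 8861 (544), 9079 to 10414 (238), 11230 to 11925 (225) and 13586 to 14544 (400.4). The MEF list held 9 peaks, of which 5 lay at -5829 to -4787 (87.1), -1758 to -954 (87.2), -378 to 1083 (134), 1093 to 1914 (106) and 2359 to 3383 (70.6). The list went on with 5354 to 6712 (132), 7401 to 7950 (44.0), 9185 to 10589 (76.3) and 11090 to 12181 (40.9). The brain list held 6 peaks, at -5923 to -5022 (39.7), -1761 to -1067 (41.1), 2423 to 3396 (44.0), 8962 to 10862 (113), 11210 to 12229 (42.2) and 13621 to 14589 (70.8). The liver list held 1 peak, at -11510 to -9554 (337). Liver peaks thus covered 1.82% of the locus, but the liver list starts at a score of 80, against 30 in MEF and brain. The promoter of the neighbour Pcyox1l, which starts 19700 bp from the Il17b TSS, went the other way from Il17b, with 0 bp under shGFP peaks and 469 bp under shSuz12 peaks.

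4933430H15Rik (chromosome 3, 87540845 to 87552547, minus strand) starts inside Pear1, a gene for a platelet receptor, whose annotated terminal exon covers its TSS. Transcripts of it also start further along, a protein-coding one 7577 bp and a processed one 10059 bp on. Windows there had 0 and 1032 bp under shGFP peaks, and 0 and 764 bp under shSuz12 peaks, so that full and then bare does not hold at every start. The shGFP list held 8 peaks, of which 4 lay at -8631 to -7792 (116), -4017 to -3104 (63.2), -1235 to 1079 (403) and 2635 to 3588 (77.8). After these came 5098 to 6416 (334), 9828 to 10442 (52.0), 10642 to 11132 (64.3) and 13663 to 14455 (61.2). The shSuz12 list held 3 peaks, at -3723 to -3146 (36.0), 9571 to 10114 (64.8) and 10839 to 11214 (76.2). This was the sparsest shSuz12 locus of the 5, with 4.73% under peaks, against a median of 4.33% over all genes. All 3 of its shSuz12 peaks met a peak of shGFP.

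In the libraries other than shGFP and shSuz12, peaks over the TSS of 4933430H15Rik were found throughout. The ESC list held 11 peaks, of which 6 lay at -10063 to -9244 (328), -8689 to -7675 (333), -5850 to -4734 (585), -3835 to -2640 (408), -1921 to 849 (1005) and 2305 to 3514 (614). Further along lay 4953 to 6375 (883), 9524 to 10480 (193), 10629 to 11768 (174), 12648 to 13456 (162) and 13738 to 14629 (137). The MEF list held 7 peaks, of which 4 lay at -9981 to -9439 (31.6), -8657 to -7610 (55.7), -1173 to 723 (126) and 812 to 1502 (47.3). Next came peaks at 2131 to 3353 (146), 3769 to 4602 (63.8) and 6173 to 6825 (38.1). The brain list held 8 peaks, of which 4 lay at -10070 to -8719 (57.4), -8637 to -7569 (54.8), -6238 to -4642 (116) and -693 to 1683 (127). Then followed 2338 to 5087 (163), 5165 to 6276 (65.8), 11115 to 12483 (55.6) and 13650 to 14585 (54.4). The liver list held 8 peaks, of which 4 lay at -8525 to -7669 (83.8), -1183 to -306 (117), -304 to 773 (138) and 2269 to 3232 (140.1). Downstream of these were 3375 to 6823 (847), 9455 to 10708 (158), 13803 to 14833 (217) and 19291 to 20231 (92.4). Pear1 itself starts at -75634 bp, and its own promoter was covered over 537 bp by shGFP peaks and over 563 bp by shSuz12 peaks. Arhgef11, which reaches into the far end of the gene, had 399 bp of its promoter under shGFP peaks and 0 bp under shSuz12 peaks.

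Atp6v1g2 (chromosome 17, 35370605 to 35375712, plus strand) overlaps Nfkbil1 on the other strand. Its outermost transcript is annotated as a retained intron, and the protein-coding ones start 1428, 2218 and 2902 bp further on. At those starts the 2 kb window had 572, 0 and 245 bp under shGFP peaks and 0 bp under shSuz12 peaks. The full coverage is therefore that of the annotated 5′ end and not of the coding starts.

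The shGFP list at Atp6v1g2 held 7 peaks, of which 4 lay at -8516 to -7919 (53.5), -7903 to -6475 (189), -5880 to -5243 (129) and -4763 to -3546 (123). The list went on with -1398 to 999 (353), 3657 to 4313 (60.7) and 14563 to 16461 (262). In shSuz12 there were 7 peaks, of which 4 lay at -10297 to -9792 (39.5), -7572 to -6463 (131), -6097 to -5474 (59.5) and 3903 to 4439 (46.6). After these came 10850 to 11217 (45.3), 14085 to 14603 (47.6) and 14814 to 15704 (70.7). The nearby promoters of Nfkbil1 and Ddx39b, an RNA helicase, had 0 bp under peaks in both shGFP and shSuz12. The windows of the 2 SNORD83 copies within Ddx39b had 0 bp under shGFP peaks, and 0 and 430 bp under shSuz12 peaks. Gm16181, upstream, had 1719 bp under shGFP peaks and 1159 bp under shSuz12 peaks. Of the 7 shGFP peaks, 4 met an shSuz12 peak, among them the peak within Ddx39b.

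In the tissues, liver and MEF peaks spanned the Atp6v1g2 TSS and brain peaks did not. The ESC list held 8 peaks, of which 4 lay at -8223 to -7370 (276), -7307 to -6376 (573), -6283 to -3397 (849) and -2801 to -1962 (159). Further along lay -1604 to 359 (730.3), 2973 to 4479 (338), 12432 to 14139 (733) and 14602 to 16671 (1271). The MEF list held 6 peaks, at -8432 to -7567 (51.7), -835 to 1528 (185), 9460 to 11679 (112), 11785 to 13031 (126), 13198 to 13835 (31.4) and 14543 to 16080 (221). The brain list held 6 peaks, at -7502 to -5162 (155), -4914 to -3704 (73.4), -2955 to -1822 (53.7), 3770 to 5077 (62.0), 11761 to 14053 (105) and 14999 to 16848 (149). The liver list held 5 peaks, at -8911 to -7107 (333), -4366 to -3044 (293), -2666 to -1823 (90.2), -1713 to 1246 (906) and 9496 to 17103 (2328). The liver peak of score 2328 was 7608 bp wide and lay within Ddx39b.

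Fads6 (chromosome 11, 115140936 to 115158977, minus strand) has a processed transcript at its 5′ end, and its protein-coding transcripts start 117 and 149 bp further on. Windows at those starts were full in shGFP and kept 62 and 94 bp under shSuz12 peaks. The shGFP list at Fads6 held 12 peaks, of which 6 lay at -9798 to -8937 (73.5), -1011 to 1518 (294), 2586 to 3591 (91.8), 4609 to 5516 (63.7), 5604 to 6598 (68.5) and 7252 to 7854 (53.0). Next came peaks at 8032 to 8718 (137), 10771 to 11835 (177), 14989 to 15648 (54.2), 23074 to 23691 (51.7), 25043 to 26983 (294) and 27567 to 28750 (161). In shSuz12 there were 7 peaks, of which 4 lay at -9443 to -8768 (56.4), -5934 to -5473 (61.0), 1055 to 1956 (70.1) and 10804 to 11859 (115). Then followed 12232 to 12879 (49.3), 14685 to 15232 (37.4) and 25038 to 26403 (132). The peak at 1055 to 1956 bp bordered the bare window on the gene side.

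Around Fads6, liver had long peaks through the gene body and MEF peaks scored at most 77.7. The ESC list at Fads6 held 16 peaks, of which 6 lay at -10142 to -9534 (83.4), -9270 to -8535 (123), -5997 to -5430 (163), -5032 to -4370 (120.1), -938 to -104 (270.4) and 283 to 1992 (732). Downstream of these were 2495 to 3595 (391), 4702 to 6312 (326), 7385 to 7967 (104), 8022 to 8741 (132), 9629 to 10313 (95.7) and 10605 to 11988 (722). The list went on with 12190 to 13666 (313), 13729 to 14329 (89.7), 14962 to 15790 (117) and 24501 to 29777 (2419). The MEF list at Fads6 held 9 peaks, of which 5 lay at -5980 to -5493 (36.9), 6301 to 7059 (77.7), 7351 to 8040 (47.4), 8063 to 8682 (45.7) and 11228 to 11928 (46.3). After these came 13704 to 14323 (55.1), 21608 to 22272 (37.0), 24168 to 24798 (44.5) and 27016 to 28027 (72.0). In brain there were 8 peaks, of which 4 lay at -1113 to -65 (54.0), 514 to 1604 (30.7), 2643 to 3721 (63.2) and 4631 to 5630 (44.2). Further along lay 9442 to 10423 (40.3), 10995 to 11994 (44.2), 12370 to 13666 (82.7) and 25021 to 27620 (129). In liver there were 10 peaks, of which 5 lay at -1122 to -177 (165), 1591 to 3766 (603), 5383 to 6348 (303), 6517 to 8817 (573) and 8971 to 14897 (2023). Next came peaks at 14911 to 16996 (704), 17262 to 18794 (344), 21602 to 22388 (95.3), 22567 to 23666 (169) and 23925 to 28866 (1307). Liver covered 78.9% of the gene, and MEF 18.8%. Among the neighbours, the promoter of Otop2, a proton channel, was covered over 862 bp by shGFP peaks and over 676 bp by shSuz12 peaks, and that of Fdxr, ferredoxin reductase, had 0 bp in both.

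Gramd1a (chromosome 7, 31915146 to 31936069, minus strand) is overlapped by G630030J09Rik, a lincRNA on the other strand whose TSS lies 1522 bp inside the gene. The promoter window of the lincRNA, which overlaps that of Gramd1a only in part, had 1690 bp under ESC peaks, 1273 bp under shGFP peaks and 477 bp under an shSuz12 peak that lies outside the Gramd1a window. The shGFP list at Gramd1a held 13 peaks, of which 5 lay at -6229 to -5737 (57.1), -1549 to 1043 (329), 1608 to 2359 (71.0), 5343 to 6174 (76.2) and 6833 to 7640 (54.2). Then followed 7914 to 8815 (76.2), 14855 to 15605 (120.3), 16483 to 17155 (59.3), 19664 to 20227 (50.3) and 22573 to 23245 (79.0). Downstream of these were 25517 to 26141 (63.8), 26620 to 27062 (62.8) and 27585 to 28423 (102). In shSuz12 there were 8 peaks, of which 4 lay at -2536 to -2087 (42.7), 1572 to 2048 (59.9), 5570 to 6093 (66.3) and 7157 to 7628 (60.2). The list went on with 9837 to 10411 (44.5), 10995 to 11925 (105), 16503 to 16994 (68.8) and 25392 to 26039 (58.0). The promoter peak of score 329 stood well above the next shGFP peak of the locus, at 120.3.

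Around Gramd1a, ESC, MEF and liver peaks reached into the window from its edges, and none of them covered the TSS. The ESC list at Gramd1a held 15 peaks, of which 5 lay at -6317 to -5722 (149), -4164 to -3345 (109.8), -2546 to -1829 (84.8), -1597 to -944 (102) and 464 to 1278 (271). After these came 1426 to 2359 (292), 4629 to 6287 (298), 7952 to 8838 (309), 14813 to 15688 (238) and 16393 to 17074 (106). Further along lay 18100 to 18774 (117), 20274 to 20856 (88.8), 21885 to 23249 (306), 25386 to 26394 (310.0) and 27489 to 28460 (329). The MEF list at Gramd1a held 8 peaks, of which 4 lay at -10623 to -9497 (197), -6416 to -5755 (41.5), -5674 to -5256 (40.0) and -1177 to -445 (35.2). Next came peaks at 1486 to 2201 (68.0), 8008 to 8952 (70.1), 22545 to 23251 (37.4) and 27554 to 28233 (31.9). In brain there were 13 peaks, of which 5 lay at -6622 to -5682 (82.4), -2637 to -1766 (37.0), 3097 to 4339 (51.2), 4547 to 5615 (61.2) and 6044 to 6696 (30.2). Then followed 6779 to 7934 (67.0), 7969 to 8904 (36.4), 8943 to 10873 (87.7), 11017 to 11925 (54.5) and 15055 to 15894 (37.3). Downstream of these were 16238 to 17296 (52.8), 19314 to 20960 (85.7) and 21945 to 23140 (34.4). In liver there were 15 peaks, of which 5 lay at -6266 to -5247 (134), -2661 to -1608 (200.02), -1598 to -239 (343), 1352 to 2877 (250.5) and 5345 to 6682 (349). The list went on with 7908 to 8838 (117), 8930 to 9752 (84.7), 16397 to 17114 (84.0), 17912 to 19330 (275) and 19424 to 21294 (256). After these came 21818 to 23353 (355), 25420 to 26648 (259), 27557 to 28420 (156), 29213 to 30451 (156) and 30551 to 32828 (466).

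The 5 promoters did not share a base composition. Over 2 kb the observed to expected CpG ratio was 0.202 at Il17b, 0.303 at Atp6v1g2, 0.323 at 4933430H15Rik, 0.489 at Fads6 and 0.562 at Gramd1a, against a median of 0.468 over all promoters and 0.445 over the 64. The number of CpG sites ran from 31 at Il17b to 102 at Gramd1a, around a median of 60 over all promoters. The GC content was lowest at Atp6v1g2, at 48.2%, and highest at Gramd1a, at 60.4%.

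To show this spread, the 300 bases upstream of the TSS are printed 5′ to 3′ on the strand of the gene, from mm9, for 3 genes with few, a median number and many CpG sites, with each CpG in capitals. They are chr17:35370305-35370604 on the plus strand with 4 CpG sites, chr11:115158978-115159277 on the minus strand with 9, and chr7:31936070-31936369 on the minus strand with 19. The median over all promoters was 9.
Atp6v1g2: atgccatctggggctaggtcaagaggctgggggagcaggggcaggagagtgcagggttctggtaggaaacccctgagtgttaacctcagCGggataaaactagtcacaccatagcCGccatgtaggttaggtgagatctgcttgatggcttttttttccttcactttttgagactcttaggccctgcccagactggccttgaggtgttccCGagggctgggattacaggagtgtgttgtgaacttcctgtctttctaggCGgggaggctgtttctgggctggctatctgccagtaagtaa
Fads6: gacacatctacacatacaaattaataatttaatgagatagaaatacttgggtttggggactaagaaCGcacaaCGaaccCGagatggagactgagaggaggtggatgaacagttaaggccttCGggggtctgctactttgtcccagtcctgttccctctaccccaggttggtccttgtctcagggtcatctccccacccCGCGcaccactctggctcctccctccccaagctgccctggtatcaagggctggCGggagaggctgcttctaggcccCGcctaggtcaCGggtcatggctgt
Gramd1a: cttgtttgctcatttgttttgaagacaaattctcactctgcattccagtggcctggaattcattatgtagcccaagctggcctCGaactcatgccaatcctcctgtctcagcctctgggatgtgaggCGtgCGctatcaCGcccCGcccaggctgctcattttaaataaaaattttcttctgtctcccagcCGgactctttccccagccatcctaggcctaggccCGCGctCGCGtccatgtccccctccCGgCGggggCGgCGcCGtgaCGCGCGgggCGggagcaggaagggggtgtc
In Gramd1a the sites gather in the part nearest the TSS.

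Other genes of the same families were followed from lists of V1 subunits, desaturases, GRAM domain proteins, and interleukin 17 ligands and receptors. Of the 30 other genes, 13 had a promoter peak in shGFP, of which 6 had none in shSuz12 and 7 had one in both, and 2 had a peak in shSuz12 alone. Over all promoters, 27.1% had a peak in shGFP, and 44.1% of these had none in shSuz12, so the 6 of 13 were near the background. None was fully covered in shGFP, and the highest, the receptor gene Il17rc, was covered over 1775 bp there, with 628 bp left in shSuz12. Among the other V1 subunits, 3 of 12 had a peak in shGFP, near the 27.1% of all promoters, and 0 had a peak in shSuz12, where the share over all promoters was 21.4%. The 3 were Atp6v1e2 with 1411 bp, Atp6v1g1 with 619 bp and Atp6v1b1 with 566 bp. In shSuz12, 3 of 5 GRAM domain genes and 3 of 5 interleukin 17 receptors had a peak. So did 2 of 3 desaturases and 1 of 5 interleukin 17 ligands, which made 9 of the 30. Il17rb, which encodes the receptor for Il17b, had 1434 bp under shGFP peaks and 1450 bp under shSuz12 peaks.

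The genes whose promoter coverage over the 6 libraries was most like that of each of the 5 were found by the sum of the absolute differences in bp. Nearest to 4933430H15Rik were Plekhn1 (728 bp) and 1700067K01Rik (874 bp), and nearest to Il17b were Cort (694 bp) and Lrrn4cl (727 bp). For Gramd1a they were Steap4 (891 bp) and Cdkl1 (946 bp), for Atp6v1g2 Pop5 (823 bp) and 2610528J11Rik (1457 bp), and for Fads6 1700019N12Rik (1158 bp) and Adam32 (1196 bp). The matching itself favours genes with little shSuz12 coverage, and of the 10 only Pop5 and Adam32 had any, over 195 and 710 bp of the promoter.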

How the data were processed

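The 6 GLIB-Seq libraries give 5hmC peaks. The authors mapped reads to mm9 with Bowtie 0.12.7 after CASAVA 1.8 and called peaks with MACS 1.4.1, as named in the submitters' processing notes. The threshold and control of the calls are not given in the sources used here. Column 5 of the deposited lists, the score, is a value from the authors' peak calling. Mitochondrial peaks were left out. Genes came from GENCODE M1, and a promoter is 1000 bases upstream of the gene's TSS, the TSS base and the bases after it, 2000 bp in all, placed by strand. During the work the window was also placed without regard to strand, after results had been seen, because that returned counts of an earlier analysis (6068 promoters with an shGFP peak in place of 6067). The placing by strand was kept, and the other is given as an added alternative.

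The members and lists were chosen with earlier results of these data known. Genes named are the 5, the sixth tied gene and the next 3 in the fall from shGFP to shSuz12, protein-coding neighbours with a TSS within 10 kb, the 2 most alike genes each, and family lists. Genes named beyond these, Sfi1, Gm17379, Tmem159, Pear1, G630030J09Rik, SNORD83, Arhgef11, Gm16181 and Pcyox1l, were chosen after their values were seen. Shares have exact Clopper-Pearson 95% intervals. Alternatives were other scores, equal numbers of peaks, window widths, lengthened peaks, every transcript TSS and all annotated genes. The steps were tested on simulated data. The software was Python 3.11.15, scipy 1.17.1, pandas 2.3.3, numpy 2.4.6 and, for figures, matplotlib 3.10.9.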

Additional observations from a re-analysis of the deposited data

How the results depend on the processing

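No paired analysis was possible because there was 1 library per condition. Of 85 values of the counts and shares under an alternative, 65 stayed alike and 20 moved, where a count was alike within 1.5 times and a share within its 95% interval as reported. Among them are the counts of the 5 genes full in shGFP and bare in shSuz12, which the rule chose. A score filter cannot add a peak to a bare promoter, so the 65 are no measure of stability. Of 125 locus coverages and CpG ratios under an alternative, 111 took another value and 14 did not. The 5 genes stayed fully covered in shGFP under every score filter, but 0 were with 2 kb on each side and 3 at every transcript TSS. In shSuz12, 2 were bare with 2 kb and 2 at every transcript TSS. The genes full in shGFP and bare in shSuz12, 6 as reported, numbered 31 with a score of at least 80 (48.4% of the full ones), 12 with at least 50 (18.8%, within the interval), 15 in the top 50% of each list (23.4%), 45 with peaks lengthened by 200 bp (14% of 322 full ones), 126 with 500 bp on each side (23.2%), 0 with 2 kb (0%) and 3 at every transcript TSS. The rise with a score filter follows from dropping shSuz12 peaks of low score. The reverse count rose from 0 to 1 with 500 bp. The share bare in ESC, 1.56% as reported, was 0% with 2 kb and 0% at every transcript TSS, and within its wide interval rose to 4.69% in the top 50% and 5.15% with 500 bp. Brain peaks reached 1 of the 5 promoters with a score of at least 80 and 5 with 2 kb. The cause was not tested for the others. Placing the window without regard to strand, an alternative chosen after seeing the data, gave the same 9 counts and shares, 5, 5, 6, 0, 9.38%, 1.56%, 4, 2 and 4. Depth is unknown, so a promoter without a peak is not shown to lack 5hmC, and the lists do not share a lowest score.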
